A study of Danaus plexippus with 48 samples.

Results

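A set of 80 genes with lower RNA levels under both shorter day lengths was drawn from the 15130 genes measured in brains of the monarch butterfly, Danaus plexippus. The levels came from RNA sequencing of 48 libraries. Members were selected on the measured group means: FPKM (fragments per kilobase of transcript and per unit of mapped reads) was scaled between libraries by median ratio, and log2 of scaled FPKM plus 1 was averaged over the 16 libraries of each group. Of the 10405 genes whose mean FPKM was at least 2, here called expressed genes, 5603 also had SP and Migrant means less than 0.75 apart on the log2 scale. The 80 genes of these with the largest value of the smaller of LP minus SP and LP minus Migrant were taken. The level differences between groups were thus fixed by the choice of members and are given as description, without a test.

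Monarchs of long summer days reproduce. Shortening days in late summer are among the cues under which adults enter reproductive dormancy and migrate south, and the circadian clock of the brain is held to take part in reading day length. Many brain transcripts of insects also rise and fall with the time of day, so a seasonal difference in level can depend on the hour of sampling.

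All butterflies were wild-type. LP (long photoperiod) butterflies were reared from the egg in days of 15 h light to 9 h dark, and SP (short photoperiod) butterflies in days of 10 h light to 14 h dark, both at 21 °C and on a semi-artificial larval diet, from crosses of parents kept in long days. Migrant butterflies were caught in the wild in fall and held at 21 °C in a cycle of 11 h light to 13 h dark, the day length at that season. All 3 groups spent at least 7 days in their cycle as adults. Each library was a pool of 3 brains, freed of the pigmented photoreceptor layer of the retina. At zeitgeber times (ZT, in hours counted from lights-on) of 1, 4, 7, 10, 13, 16, 19 and 22, each group had 1 pool labelled female and 1 labelled male. The female label went with replicate 1 in LP and Migrant and with replicate 2 in SP, so within a group the sex label and the replicate number cannot be told apart. Migrant libraries were made with an NEBNext directional kit and LP and SP libraries with a TruSeq stranded kit, so kit, wild origin and group cannot be told apart for Migrant. Between LP and SP no such difference of kit is recorded.

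Libraries held 5.47 M to 10.6 M reads in genes (M, 1e6 reads), with group means of 9.0 ± 1.02 for LP, 7.27 ± 0.97 for SP and 6.94 ± 0.61 for Migrant (SD, n = 16). Migrant ZT22 replicate 1 stood apart. Over 11630 genes its correlation with the other pool of its time was 0.872, against 0.924 or more in the other 23 such pairs. In it, 15 members had their lowest and 35 their highest level of the 16 Migrant libraries. No identifier matched a named gene in the RefSeq table used here, so members are given by identifier, their functions are not stated, and markers of brain or of other tissues could not be checked. In pooled brains, fewer cells of a type and less RNA per cell cannot be told apart.

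The members were lower by 0.848 to 2.57 on the log2 scale in SP (median 1.34), and by 0.849 to 3.11 in Migrant (median 1.12). Over the 10405 expressed genes, the medians of LP minus SP and LP minus Migrant were -0.01 and 0.04. Both differences use the same LP libraries. In 55 members the level was at least 2-fold lower in both groups, as in 0.778% of expressed genes, and in 8 it was at least 4-fold lower in both, as in 0.115%. SP had the lower mean in 57 members and Migrant in 23.

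The 2 last members by rank were DPOGS210548, whose smaller difference was 0.849, and DPOGS201076, at 0.848. The first 2 genes outside the set were DPOGS212807 at 0.846 and DPOGS201132 at 0.841, so the limit of 80 cut a continuous series. The position of all genes in both differences is drawn in the scatter plot of group means.

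**Figure D1:**
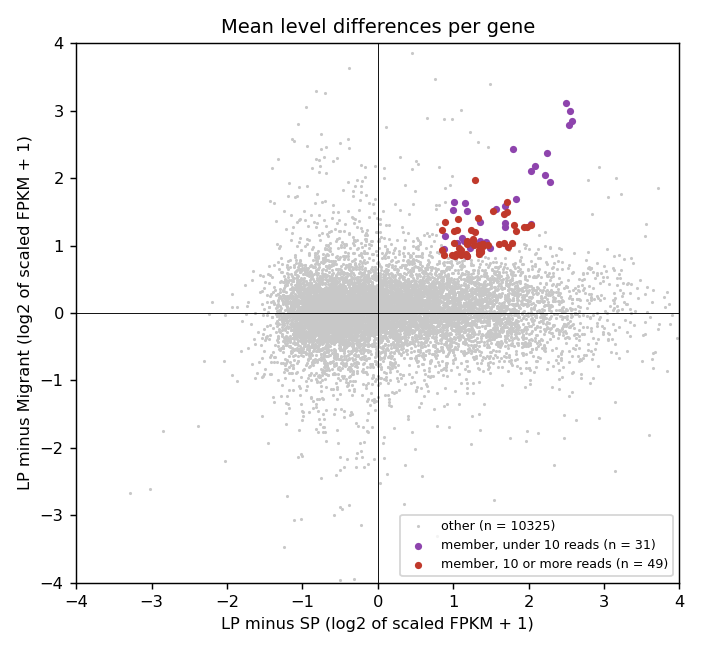
Each point is an expressed gene, placed by its LP minus SP (x axis) and LP minus Migrant (y axis) difference in mean log2 of scaled FPKM plus 1. The 49 members with 10 or more reads per library in every group and the 31 members below that are coloured, and grey points are the other expressed genes. In all, 36 genes beyond 4 on an axis are not drawn, none of them a member. The members from highest to lowest rank run from the upper right down to 0.848 on the smaller difference. Those furthest out have few reads in at least 1 group.

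How firmly a member was measured varied widely. Averaged over its libraries, LP gave under 10 reads for 14 members, and SP and Migrant each did for 29. In all, 49 members had 10 or more reads per library in every group and 31 did not, and such low read numbers were found in 8.71% of expressed genes. All of the 10 highest-ranked members were among the 31. The few-read members had larger median differences (1.57 in SP and 1.53 in Migrant) than the well-read members (1.30 and 1.03). This split by reads was made after the values were seen.

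The highest-ranked pair had few reads in LP as well as in SP and Migrant. DPOGS203918 (scaffold DPSCF300005, 669385 to 670008) had a scaled FPKM of 0 to 22.9 in LP (median 9.49), was listed at 0 in 12 of 16 SP libraries and in 14 of 16 Migrant libraries, and averaged 3.56 reads per LP library. DPOGS203774 (DPSCF300010, 677400 to 692341) had 0 to 33.4 in LP (median 10.5), was listed at 0 in 11 SP and 13 Migrant libraries, and averaged 3.0 reads in LP. No fold is given for either. Not all of the 10 highest-ranked members were like this pair. DPOGS215455, DPOGS204218 and DPOGS214856 averaged 27.2, 18.2 and 32.9 reads in LP and under 10 in SP and in Migrant. In each of them every LP library was above all SP and Migrant libraries, which held for no other member of the 10. Across the set, 55 members were above 0 in all 48 libraries, 7 were at 0 in more than 8 SP libraries, 7 in more than 8 Migrant libraries, and 2 in all 16 SP libraries.

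The well-read members include genes in which the groups did not overlap. DPOGS214513 (DPSCF300287, 416419 to 419243), picked with its values in view, had a scaled FPKM of 33.9 to 47.3 in LP (median 38.2), 6.56 to 19.2 in SP (median 11.2) and 8.83 to 17.8 in Migrant (median 11.8). Every LP library was above every SP and Migrant library, and the mean levels were 3.28-fold lower in SP and 3.12-fold lower in Migrant on the scale of FPKM plus 1. DPOGS214557 (DPSCF300266, 11616 to 35114), picked in the same way, ranged from 200.5 to 242.9 in LP (median 221.8), from 63.3 to 129.2 in SP (median 99.3) and from 86.2 to 140.5 in Migrant (median 107.8), again without overlap. It was 2.27-fold lower in SP and 2.04-fold lower in Migrant, on 1612 to 4888 reads per library in the group means.

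Of the 2 most abundant members, DPOGS216056 (DPSCF300067, 148549 to 150439) ranged from 3231 to 4283 scaled FPKM in LP (median 3615), from 390.2 to 3033 in SP (median 1210) and from 269.9 to 2704 in Migrant (median 2003). The lowest Migrant value was that of ZT22 replicate 1, and the other 15 Migrant pools began at 1539. All SP and Migrant libraries were below the lowest LP library. DPOGS214898 (DPSCF300579, 8635 to 8705) covers 70 bases, and its median scaled FPKM was 1616000 for LP, 733000 for SP and 893500 for Migrant. Its reads and FPKM imply an effective length of 0.47 bases, so its FPKM is inflated by the length term, and its LP range of 1297000 to 1942000 overlapped SP, which reached 1836000, and Migrant, which reached 1393000. Without Migrant ZT22 replicate 1, LP minus Migrant was 0.837 for DPOGS216056 and 0.842 for DPOGS214898, both under the smallest value in the set.

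**Figure D2:**
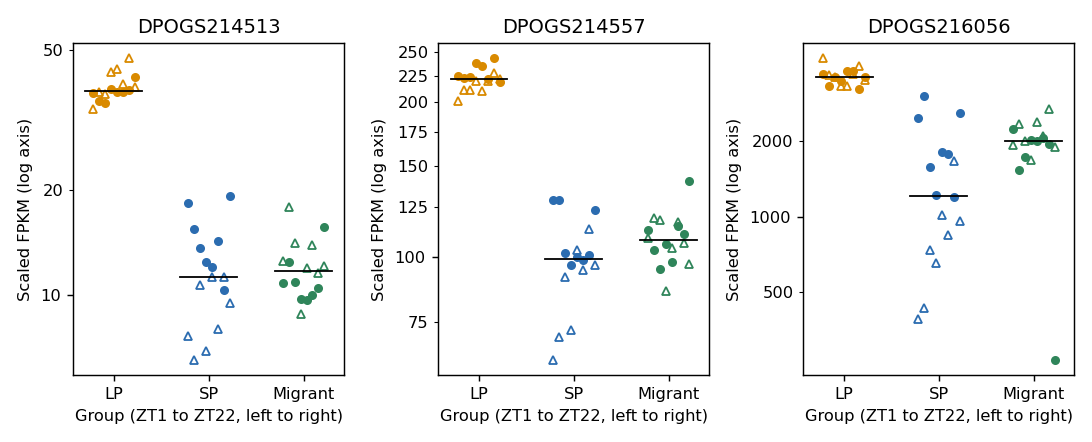
Scaled FPKM (log axis) of DPOGS214513, DPOGS214557 and DPOGS216056 in every library, by group on the x axis and ordered from ZT1 to ZT22 within a group. Filled circles are pools labelled female, open triangles pools labelled male, and bars are medians of 16 libraries. LP libraries lie above all others in each panel, SP pools labelled male make up most of the lower end of SP, and the single low Migrant point of DPOGS216056, at 269.9, is ZT22 replicate 1.

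Complete separation of this kind was found in 27 members, in which the lowest LP library was above all SP and Migrant libraries, against 1.85% of expressed genes. LP was above all SP libraries in 42 members (25.6% of expressed genes) and above all Migrant libraries in 35 (5.51%). Without Migrant ZT22 replicate 1 the counts were 36 against both groups and 46 against Migrant, and the median LP minus Migrant was 1.11. No share of expressed genes without that library is given, so the rise in the counts is not read as particular to the members. Since the members were chosen by these differences, the counts describe how cleanly the chosen means separate and carry no test.

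By time of day, the chosen difference was spread as follows. At each of the 8 times, 76 to 79 of the 80 were higher in LP than in SP by the mean of the 2 pools, and 76 to 79 were higher in LP than in Migrant. Of the 80, 68 were lower in SP at all 8 times (40.6% of expressed genes), 71 were lower in Migrant at all 8 (21.9%), and 66 in both (10.8%), in the same libraries that chose them. The median LP minus SP over members was between 1.15 at ZT22 and 1.54 at ZT10, and the median LP minus Migrant between 1.06 at ZT1 and 1.28 at ZT13.

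The rule sets LP apart from SP and Migrant on average, and the single libraries show how evenly. With each gene centred on its LP mean, the median of the 80 genes lay between -0.12 and 0.16 in the LP libraries, between -1.89 and -0.84 in SP (median -1.29) and between -1.28 and -0.93 in Migrant (median -1.13). No SP or Migrant library reached an LP library. SP had the widest range of the 3 groups.

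**Figure D3:**
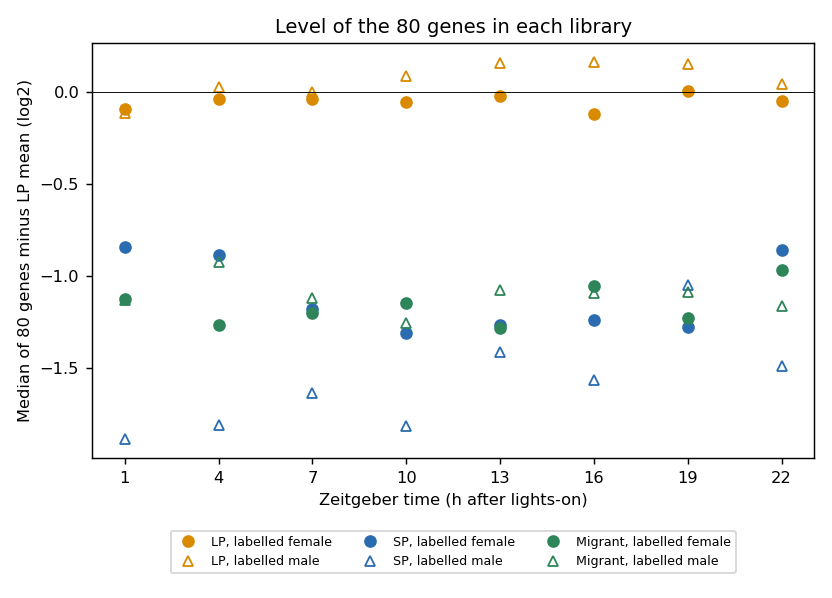
Median over the 80 genes of log2 of scaled FPKM plus 1, each gene minus its LP mean (y axis), in each library by zeitgeber time (x axis, h). Filled circles are pools labelled female and open triangles pools labelled male, and colours are the groups. LP libraries lie from -0.12 to 0.16, and SP pools labelled male are the lowest at 7 of 8 times.

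Over the 16 libraries of a group, the members spread most in SP. On the log2 scale, the median within-group SD of the members was 0.26 for LP, 0.56 for SP and 0.51 for Migrant, and over all expressed genes it was 0.14, 0.29 and 0.28. Within a label, the largest median SD of the members was 0.59, in Migrant pools labelled female. It was 0.35 in Migrant pools labelled male, and 0.38 and 0.49 in SP pools labelled female and male. In 72 members the SD over the 16 libraries was larger in SP than in LP. The median SD over all expressed genes was larger in SP too, so this is not read as particular to the members. Members also moved together from one SP library to the next. Their median pairwise correlation over the 16 SP libraries was 0.431 (78 members, without the 2 at 0 in SP), with 43.2% of pairs over 0.5, beside 0.002 and 23.9% over all expressed genes. In LP it was 0.077 and in Migrant 0.071. For the 49 well-read members it was 0.741 in SP, with 75.6% of pairs over 0.5, beside 0.001 and 26.0% over the 9499 expressed genes with as many reads. It was 0.087 in LP and 0.197 in Migrant. These genes were measured in the same libraries and were chosen for a common direction, so the correlations are a description.

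In SP the shared movement ran with the pool label. The median of the members was -1.89 to -1.05 in pools labelled male (median -1.60) and -1.31 to -0.84 in pools labelled female (median -1.21), relative to the LP mean. The pool labelled female was the higher at 7 of 8 times, by a median over members of 1.02 at ZT1 and 1.03 at ZT4, and it was lower by that measure at ZT19, at -0.18. The share of reads in the 10 most-read genes of a library moved with it. That share was 8.92% to 12.0% in SP pools labelled male and 8.30% to 9.98% in those labelled female, its order between the labels also turned at ZT19, and it was 6.99% to 7.64% in LP. In Migrant it was 5.87% to 9.17% with a median of 6.28%, below LP, although the members were low there too. At most 1 of those 10 genes was a member in any library. The part of this difference in library composition in the levels of the members was not tested.

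The size of the chosen difference varied with the label. Against the mean of all LP libraries, the median of the members was 1.13 lower in SP pools labelled female and 1.59 lower in SP pools labelled male. All 80 members were lower in each kind of pool, beside 49.2% of expressed genes for the female label and 50.1% for the male label. They were at least 2-fold lower in 51 cases with the female label (16.9% of expressed genes) and in 77 with the male label (24.7%). These libraries chose the members, so nothing is read from the shares.

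Each time held 1 pool of each label, and the female minus male difference was tested with limma with Benjamini-Hochberg adjustment over 11630 genes, all 80 members included. The choice of members used no label, but their difference between labels is free of that choice only where both labels spread alike. By the median SD of the members they did not in SP, at 0.49 over pools labelled male and 0.38 over pools labelled female. The SP pools labelled male also lay lower. A low SP mean thus favours genes that are low in the pools labelled male, and the counts of members in SP, their shared direction included, are a description and are not read against all genes. The labels did not spread alike in Migrant either. There the median SD was 0.59 over pools labelled female, which include ZT22 replicate 1, and 0.35 over pools labelled male. Counts of members in Migrant are therefore a description too. In LP the values were 0.20 over pools labelled female and 0.24 over pools labelled male. By gene, the SD was larger over pools labelled male in 43 of the 80 members in SP, 20 in Migrant and 51 in LP. Counts of members in LP are therefore a description as well. In SP, 42 of the 80 members (52.5%) had an adjusted p under 0.05, beside 43% of all tested genes. All 42 were higher in pools labelled female, by 0.28 to 1.93 (median 0.63). The estimate was above 0 in 74 members, with a median of 0.53, beside 51.2% and 0.01 over all tested genes. Of all tested genes, 2688 were called higher in pools labelled female and 2317 in pools labelled male. Of the 42, 37 were well-read members. The count depended on the spread used. With the SP libraries alone, 16 members (20%) were called, all higher in pools labelled female, beside 9.58% of all genes.

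In LP, 1 member passed the limma test of the label at an adjusted p under 0.05, against 1.13% of all genes. In Migrant 2 did, beside 0.602% of all genes. Without Migrant ZT22 replicate 1, 5 members and 531 genes were called in LP. With only the LP libraries, whose spread was smallest, 23 members (28.8%) were called, against 18.6% of all genes. Of the 23, 5 were higher in pools labelled female and 18 in pools labelled male, beside 1012 and 1156 of all genes. The direction is not read as particular to the members. With only the Migrant libraries 0 members were called, against 0.0774% of all genes, and 5 had an unadjusted limma p under 0.05. A test of whether the label difference itself differed between groups was added after the SP values were seen. By limma, 36 members had a larger female minus male difference in SP than in LP and none a smaller one, beside 22.5% of all genes in either direction. Between Migrant and SP it differed in 21 members, all smaller in Migrant, beside 20.8% of all genes. As these differences include the SP label difference, they too are a description of the chosen members. Between Migrant and LP it differed in 0 members, against 0.0602% of genes, with 6 members at an unadjusted limma p under 0.05.

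DPOGS203315 (DPSCF300003, 945085 to 946829) had the lowest adjusted p of any member for the label in LP and in Migrant, and the direction turned in SP. In LP its scaled FPKM was 11.4 to 17.4 in pools labelled female (median 13.8) and 26.4 to 37.5 in pools labelled male (median 30.3), without overlap. In Migrant it was 3.83 to 12.6 (median 4.61) with the female label and 7.29 to 14.1 (median 11.0) with the male label. The female-labelled pool was lower at 7 of 8 times, and the exception was ZT22, whose female-labelled pool is the Migrant library that stood apart. In SP the order was the reverse at all 8 times, with 11.1 to 16.5 (median 13.6) in pools labelled female and 5.19 to 12.6 (median 8.97) in pools labelled male.

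The female minus male difference of DPOGS203315 was -1.12 ± 0.13 in LP (SE, limma adjusted p = 6.63e-06), -0.86 ± 0.13 in Migrant (limma adjusted p = 0.00047) and 0.60 ± 0.13 in SP (limma adjusted p = 0.00136), on the log2 scale. The difference between SP and LP was 1.71 ± 0.18 (limma adjusted p = 6.38e-07), and that between Migrant and SP -1.46 ± 0.18 (limma adjusted p = 1.27e-05). With only the Migrant libraries in the fit, the Migrant difference had a limma adjusted p of 0.162. The SP difference had a limma adjusted p of at most 0.042 under the alternatives run. How far DPOGS203315 was below LP therefore varied with the labels compared. LP minus SP was 0.03 between pools labelled female and 1.74 between pools labelled male, and LP minus Migrant was 1.22 and 1.48. Across labels, LP minus SP was 0.63 for LP female against SP male and 1.14 for LP male against SP female. The replicate number goes with the label in the opposite way in SP, so by replicate number the order is the same in all 3 groups, with replicate 1 the lower. Whether the sex labels of the SP pools are exchanged was not tested, and an exchange would turn the sign of each female minus male value given for SP.

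DPOGS212565 (DPSCF300075, 133354 to 135261) showed a similar order. Its scaled FPKM was 386.2 to 464.9 in LP pools labelled female and 498.6 to 584.8 in those labelled male, 227.4 to 488.8 and 132.8 to 193.0 in SP, and 31.2 to 220.7 and 226.9 to 337.3 in Migrant. The labels did not overlap within any of the 3 groups, and the lowest Migrant value was that of ZT22 replicate 1, with 175.6 the next. The female minus male difference was -0.32 ± 0.19 in LP, which was not called (limma adjusted p = 0.613), 1.07 ± 0.19 in SP (limma adjusted p = 0.000513) and -0.80 ± 0.19 in Migrant (limma adjusted p = 0.0497). The Migrant call was lost under most alternatives, with limma adjusted p from 0.0275 to 0.732, and the SP call was kept in all of those run.

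DPOGS203586 (DPSCF300063, 1069497 to 1070187) had the largest label difference among the members called in SP. It ranged from 68.2 to 366.0 in SP pools labelled female (median 150.9) and from 22.4 to 168.1 in SP pools labelled male (median 34.8), while LP pools lay between 190.7 and 262.9. The difference was 1.93 ± 0.35 (limma adjusted p = 0.000576), with the female-labelled pool higher at 7 of 8 times. This SE rests on a spread shared by the 3 groups, while the SD over 16 libraries was 0.15 in LP, 0.51 in Migrant and 1.35 in SP. Under the alternatives run, the limma adjusted p of this difference was at most 0.0494. The highest SP pool labelled female was above all LP pools, and all SP pools labelled male were below them.

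**Figure D4:**
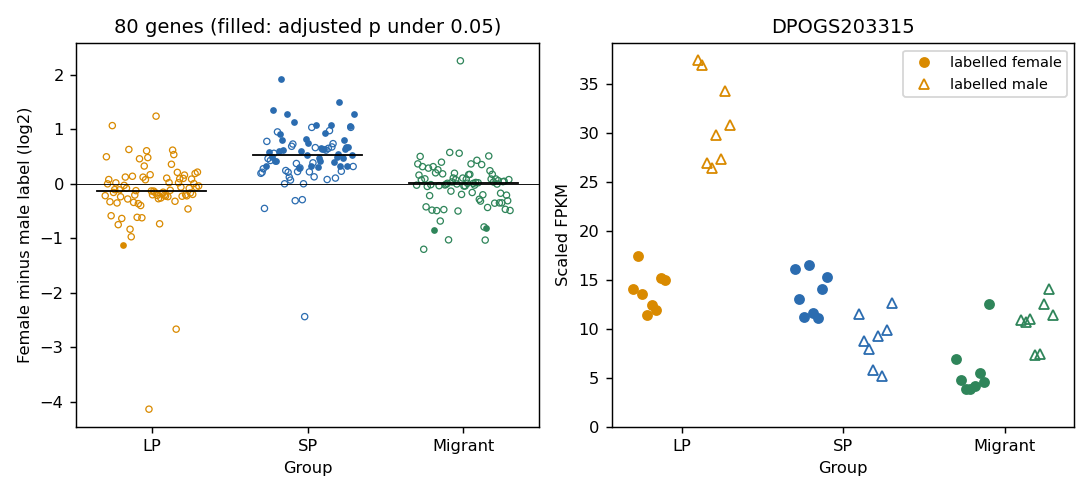
Left, the female minus male label difference (log2) of each of the 80 genes in each group, with filled points at a limma adjusted p under 0.05 and bars at the medians. Right, scaled FPKM of DPOGS203315 in each library by group and label. The SP points are mostly above 0, with a median of 0.53, in genes chosen for a low SP mean, and DPOGS203315 is lower in pools labelled female in LP and higher in them in SP.

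The daily pattern of the members was not used to choose them. A 24 h rhythm, fitted as a cosine and a sine and tested with limma, was called at an adjusted p under 0.05 for 1 of 80 members in LP, where 0.55% of all tested genes were called, for 1 in SP, where 1.12% were, and for 1 in Migrant, where 1.39% were. It was the same gene, DPOGS204644, in each group. At an unadjusted limma p under 0.05 there were 3 members in LP, 7 in SP and 8 in Migrant, or 3.75%, 8.75% and 10%, beside 2.63%, 7.58% and 17.2% of all genes. The lowest adjusted p of any other member was 0.155 for LP, 0.114 for SP and 0.147 for Migrant. The median fitted amplitude of the well-read members, the distance from their mean to the fitted peak, was 0.06 for LP, 0.15 for SP and 0.20 for Migrant. Over all 80 members it was 0.11, 0.22 and 0.27, and over all tested genes 0.06, 0.12 and 0.15.

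DPOGS204644 (DPSCF300462, 48480 to 60775) swung widely. In LP the mean of its 2 pools fell from 143.5 scaled FPKM at ZT4 to 25.6 at ZT13 and returned to 102.8 at ZT22. In SP it was 48.4 at ZT4, 12.0 at ZT10 and 88.8 at ZT22. In Migrant it was 41.8, 11.8 and 89.5 at the same times. SP and Migrant followed each other closely, and both parted from LP in the hours after lights-on.

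The fitted amplitude of DPOGS204644 was 1.26 ± 0.09 in LP (limma adjusted p = 3.13e-13), 1.41 ± 0.09 in SP (limma adjusted p = 5.92e-15) and 1.28 ± 0.09 in Migrant (limma adjusted p = 2.05e-13). Its fitted peak was at ZT 1.20 in LP, at ZT 23.5 in SP and at ZT 22.7 in Migrant. The rhythm differed between Migrant and LP (limma adjusted p = 0.00129), a test that called 0.043% of all genes. It was not called different between SP and LP (limma adjusted p = 0.144). In that comparison 0% of genes were called, and 3 members and 236 genes had an unadjusted limma p under 0.05. Between Migrant and SP no member was called, against 0.0086% of genes, with 1 member, DPOGS210870, at an unadjusted limma p under 0.05 (limma adjusted p = 0.654).

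By time, the lower mean of DPOGS204644 was made up as follows, with only the difference in rhythm between Migrant and LP past the test. LP minus SP was 1.56 at ZT4 and 1.37 at ZT7, and 0.33 at ZT19 and 0.21 at ZT22, on the log2 scale with 2 pools per group. LP minus Migrant was 1.76 at ZT4 and 1.57 at ZT7, and 0.10 at ZT16 and 0.24 at ZT22. Both LP pools were above all SP and Migrant pools at each time except ZT16, where LP and Migrant overlapped, and ZT22, where LP overlapped both. At ZT22 the Migrant pools were far apart, at 112.2 in replicate 1 and 66.9 in replicate 2, and only the first reached the LP range. Without that library the mean LP minus Migrant was 0.97 and the difference of rhythm had a limma adjusted p of 0.00156.

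**Figure D5:**
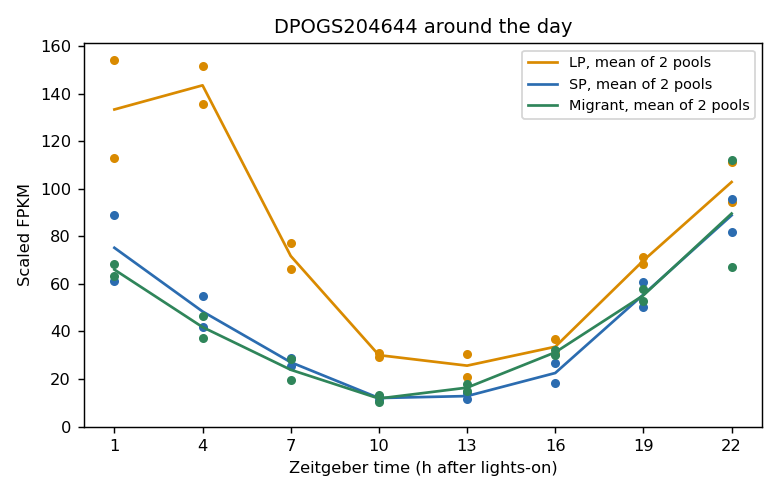
Scaled FPKM of DPOGS204644 (y axis, from 0) at each zeitgeber time (x axis, h), with points for single pools and lines through the means of the 2 pools of a group. LP reaches 143.5 at ZT4, where SP is at 48.4 and Migrant at 41.8, and the 3 groups come together at ZT22.

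The effective length implied by reads and FPKM tended to be short in the members. It is not the length of the gene model: DPOGS214898 covers 70 bases and has 0.47 implied. The length implied by reads and FPKM had a median of 256 bases over the members and 1440 bases over expressed genes, and 26 members (32.5%) were under 100 bases, against 6.82% of those genes. Of these 26, 19 were few-read members and 7 well-read. The 710 expressed genes with an implied length under 100 bases had a median LP minus SP of 0.04 and a median LP minus Migrant of 0.22. The genomic span had a median of 2307 bases in the members and 3439 over the same genes.

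The members fell on 64 scaffolds, of 774 that held a tested gene, and 15 scaffolds held 2 or more. Among tested genes, 3 pairs of members were next to each other. No value over other genes is set beside this number, so whether members lie together more or less often was not tested. The spans of 4 members overlapped another gene, whose reads may not be told apart from theirs. The highest number on a scaffold was 3, on DPSCF300063.

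There, DPOGS203628 (1026866 to 1027236) had a median of 445.7 scaled FPKM in LP, 209.0 in SP and 205.2 in Migrant. DPOGS203590 (1029992 to 1039027) had 57.3, 25.5 and 33.0, and DPOGS203586 follows them. Between the first and last of them lie 4 genes outside the set. DPOGS203591, next to DPOGS203628, was 1.46 lower in SP and 0.69 lower in Migrant on the log2 scale, and the other 3 had LP minus SP values of -0.55 to -0.12. Their LP minus Migrant was 0.44 in DPOGS203589, 0.41 in DPOGS203588 and -1.28 in DPOGS203587.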

How the data were processed

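The authors deposited FPKM values with confidence limits per gene and library. CASAVA 1.8.2, TopHat2 and Cufflinks were used, per the submitters' processing notes, and no build is given in the sources used here. Coordinates are as deposited, with starts uncertain by a base. Values were scaled by median ratio over 10595 genes above 0 in all 48 libraries and analysed as log2 of FPKM plus 1, so folds of low genes are understated. Genes averaging at least 0.5 FPKM were tested with limma 3.58.1 in R 4.3.3 (trend and robust options, Benjamini-Hochberg adjustment, threshold 0.05). Rhythms had a mean, a cosine and a sine per group, and the label test had 24 means of group and time with a female minus male term per group. All 48 libraries entered each fit. The models were run on simulated data with independent errors and the same spread of a gene in all groups. The spread in these data differed between groups, so the simulation does not cover that case. Tables were joined with Python 3.11.15, pandas 2.3.3 and numpy 2.4.6, and plots drawn with matplotlib 3.10.9.

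Members and lists were chosen with earlier results of these data known. Named members were the 2 highest-ranked, the 2 most abundant, the 2 genes on either side of the rank limit, up to 2 called members of lowest adjusted p per test (or, with none called, the member of lowest adjusted p), and those on the scaffold with most members. Gene lists and tissue markers could not be run, because 0 identifiers matched RefSeq (assembly MEX_DaPlex), and no sequence is shown. Reads per gene were recovered from the upper confidence limit, whose distance from FPKM was read as 2 FPKM divided by the root of the reads. Of values under 30 reads, 83.8% lay within 0.05 of a whole number, so reads were used for depth and no count test was run. The labels call the pools replicates, and p-values rest on the residual spread of these pools, shared by the 3 groups. In the label test that residual is how the female minus male difference varied over the times. In the rhythm test it includes the label difference.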

Additional observations from a re-analysis of the deposited data

Results flagged for a closer look

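The daily rhythm of DPOGS204644 differed between Migrant and LP (limma adjusted p = 0.00129), and this adjusted p stayed between 0.000425 and 0.0341 under the alternatives run. The female minus male label difference of 36 members differed between SP and LP (limma adjusted p under 0.05), all larger in SP, where 22.5% of all tested genes differed in either direction. The same difference was smaller in Migrant than in SP in 21 members, where 20.8% of all tested genes differed. The members were chosen for a low SP mean. The SP pools labelled male lay lower and had the larger median SD, so neither the direction nor the count is free of that choice. The label goes with the replicate number in the opposite way in SP, and the 2 cannot be told apart.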

How the results depend on the processing

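No result changed direction under the alternatives run. Of the 80 members, ranking by the same rule kept 56 with FPKM as deposited, 59 with quantile normalization, 63 with group medians and 68 with a pseudocount of 0.1. It kept 48 from pools labelled female alone, 52 from pools labelled male alone, 70 to 79 when single libraries were omitted (70 for Migrant ZT22 replicate 1), and, in alternatives chosen after seeing the data, 67 without Migrant ZT22 replicate 1 and ZT10 replicate 2 and 49 with at least 10 reads per library in every group. Members called for the label in LP numbered 2 with quantile normalization, and in Migrant 1 with a pseudocount of 0.1, with no filter or with a mean FPKM of 2 or more. With a group's own libraries they numbered 23 in LP, 16 in SP and 0 in Migrant. With 1 library left out, which removes its pair from the label test, calls were 1 to 5 in LP (5 without either Migrant ZT22 library), 1 to 3 in Migrant and 32 to 47 in SP. Rhythm calls were 1 to 2 in LP (2 without SP ZT1 replicate 1), 1 to 2 in SP (2 without Migrant ZT22 replicate 1 or SP ZT19 replicate 2) and 1 in Migrant. With a replicate block, 2 members were called rhythmic in Migrant and no other member count of calls changed. Libraries of the same replicate number deviated together only weakly over all tested genes (median correlations 0.02 to 0.06, at most 0.17 at a time). A correlation over all genes cannot show whether some genes follow the replicate number. Nothing is concluded from it about what libraries of the same number share. The causes of these changes were not tested. For the 31 few-read members, counting error is large at this depth, and 19 of them have an implied effective length under 100 bases.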
